A study of Mus musculus with 40 samples.

Results

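The calcium channels, stores and pumps of the aortic wall are described here through 10 genes, chosen by their symbols in the name column of the deposited tables: Cacna1c, Cacna1h and Cacnb2 (voltage-gated channels), Itpr1 and Ryr2 (store release channels), Atp2a2 and Pln (the store pump and its inhibitor), Atp2b1 and Slc8a1 (extrusion at the plasma membrane) and Stim1 (the store sensor). All 10 were found in both experiments, among 17402 and 15399 genes listed, of which 14424 and 13741 were protein-coding, and all 10 passed the filter on low values. RNA was sequenced from mouse aortas freed of adventitia and perivascular tissue, with 3 aortas pooled per library, and the study asked which genes need calcineurin (Cn), a calcium-dependent phosphatase, for their response to angiotensin-II (Ang-II). The genotype experiment held 22 libraries from male mice with a floxed CnB1 (Ppp3r1) gene, either Cn-Ctl (CnB1-flox, Myh11-CreERT2-neg) or SM-Cn-/- (CnB1-flox, Myh11-CreERT2-pos), which were untreated (basal) or had received Ang-II for 2, 6 or 24 h. The CsA experiment held 18 libraries from C57BL/6J wild-type (WT) mice, with or without 5 days of cyclosporin A (CsA, an inhibitor of Cn activity), either basal or given Ang-II for 2 or 24 h.

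Both genotypes had received tamoxifen, 1 mg/day for 5 days from 10 to 12 weeks of age, 6 weeks before use. Ang-II was given at 1 ug/kg/min from osmotic minipumps and CsA at 5 mg/kg/day from a pump of its own, which the WT mice did not carry, so that drug and pump cannot be told apart. The Myh11 promoter drives the Cre recombinase in smooth muscle, so the other cells of the wall keep Cn. The labels give the Cn-Ctl pools as Cre-negative, whereas the methods also count Cre carriers without the floxed allele as controls. Ang-II-treated Cn-Ctl, WT and CsA mice entered the pools only with a systolic pressure above 130 mmHg, whereas all SM-Cn-/- mice were kept, so that this selection and the genotype cannot be told apart. Each group held 3 libraries, except untreated Cn-Ctl and Cn-Ctl at 24 h with 2 each, and the p-values measure the spread between pools.

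In smooth muscle, calcium enters from outside through voltage-gated channels and through store-operated channels that open when the store sensor detects an empty store, and it leaves the sarcoplasmic reticulum through inositol trisphosphate (IP3) and ryanodine receptors. Ang-II acts through a receptor coupled to phospholipase C, which makes IP3. Pumps of the store membrane and pumps and exchangers of the plasma membrane then lower cytosolic calcium again. Calcium bound to calmodulin activates both myosin light chain kinase, which starts contraction, and Cn, which dephosphorylates transcription factors of the NFAT family.

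Depth was 2.728 to 10.25 M assigned reads per library (median 6.519) in the genotype experiment and 18.98 to 38.9 M (median 22.82) in the CsA experiment. All 7 smooth muscle markers were present in both experiments, with a summed signal of at least 16292 in every library. The signal is the authors' normalised read count, close to counts per M reads. Ppp3r1, the targeted gene, had a signal of 45.7 to 133.9 in the Cn-Ctl libraries and 41.8 to 117.7 in those labelled SM-Cn-/-, and it did not pass the test between genotypes at any time (lowest adjusted p = 0.429). Rcan1, a known target of Cn and NFAT, reached 367.6 to 404.0 at 2 h in Cn-Ctl pools and 31.7 to 55.3 in those labelled SM-Cn-/-. In the CsA experiment, 6 of 18 libraries held cardiac muscle RNA, with a summed signal of 6 cardiac markers above 200: untreated CsA replicates 1 (1037) and 2 (1681), untreated WT replicate 1 (432), WT at 2 h replicate 2 (457) and WT at 24 h replicates 1 (432) and 2 (419). The other 12 lay between 55.0 and 190.0, and no library of the genotype experiment exceeded 149.9. Pln, Ryr2 and Atp2a2 are abundant in heart muscle, so some member results of the CsA experiment are also given below without these 6 libraries. This alternative was chosen after seeing the data. It is not given for the other results of the CsA experiment, among them those of the further calcium genes. Leaving these 6 libraries out kept 1 pool each in untreated CsA and in WT at 24 h, and 2 each in untreated WT and in WT at 2 h. Contrasts with a group of 1 pool are given below by their value only.

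The sequences before the start sites are shown for the genes whose changes recur below, Cacna1c, Pln and Stim1. They come from RefSeq on GRCm38.p6, cut where a GENCODE exon begins. Of the 10 genes, 7 had such a window, 11 windows in all, and Itpr1, Atp2a2 and Cacna1h had none. Stim1 lies on the plus strand of chromosome 7 and its window at chr7:102267569-102267805 directly precedes the gene, as that of Pln does on the plus strand at chr10:53337436-53337666. Cacna1c on the minus strand of chromosome 6 had 3 start sites, of which chr6:119196419-119196659 precedes the gene, and chr6:119108574-119108745 and chr6:118757975-118758224 lie in introns. Capitals mark matches on either strand, overlaps included, to the letters searched.
Stim1: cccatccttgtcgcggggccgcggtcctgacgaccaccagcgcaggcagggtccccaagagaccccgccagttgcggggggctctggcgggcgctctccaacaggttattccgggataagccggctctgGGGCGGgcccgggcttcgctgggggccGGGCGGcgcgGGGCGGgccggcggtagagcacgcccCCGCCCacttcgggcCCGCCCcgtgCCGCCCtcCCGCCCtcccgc
Pln: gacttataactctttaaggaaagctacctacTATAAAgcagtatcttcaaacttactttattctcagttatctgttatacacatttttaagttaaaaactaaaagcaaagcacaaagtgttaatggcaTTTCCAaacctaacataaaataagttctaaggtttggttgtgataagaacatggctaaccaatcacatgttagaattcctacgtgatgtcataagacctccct
Cacna1c upstream start: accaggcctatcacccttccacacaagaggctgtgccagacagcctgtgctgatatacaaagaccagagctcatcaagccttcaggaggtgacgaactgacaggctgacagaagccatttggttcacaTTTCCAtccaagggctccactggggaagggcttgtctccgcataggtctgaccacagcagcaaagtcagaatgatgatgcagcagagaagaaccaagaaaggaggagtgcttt
Cacna1c middle start: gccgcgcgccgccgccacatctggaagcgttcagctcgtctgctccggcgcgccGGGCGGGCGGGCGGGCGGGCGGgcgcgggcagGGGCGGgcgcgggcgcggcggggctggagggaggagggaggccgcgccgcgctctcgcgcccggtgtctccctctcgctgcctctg
Cacna1c downstream start: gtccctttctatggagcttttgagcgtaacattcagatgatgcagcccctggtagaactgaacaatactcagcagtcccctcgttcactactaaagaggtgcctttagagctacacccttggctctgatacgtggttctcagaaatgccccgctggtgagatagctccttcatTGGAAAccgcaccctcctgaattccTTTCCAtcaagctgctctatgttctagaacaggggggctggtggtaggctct

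The letters searched were the cAMP response element TGACGTCA, the AP-1 site TGANTCA, the NFAT core TGGAAA, the GC box GGGCGG, the TATA box TATAAA and the CArG box of serum response factor. The NFAT core occurred 2 times in the downstream and 1 time in the upstream window of Cacna1c and 1 time in that of Pln, and 18.6% of all 32851 RefSeq windows of 250 bases hold it. The Stim1 window held 7 GC boxes, the middle window of Cacna1c 6 and one window of Atp2b1 3, against 32.7% of all windows with at least 1. Pln alone held a TATA box, found in 12.4% of all windows. Of the 11 windows, 1 of Cacnb2 had no base left after the cut at exons and 1 of Atp2b1 had 14, and the other 9 had 172 to 250. In those 9 the letters of the cAMP response element, the AP-1 site and the CArG box were not found, and 1.55%, 6.75% and 1.47% of all full windows of 250 bases hold them. Shorter windows have fewer places for a match. The windows of Stim1 and the middle start of Cacna1c had a GC content of 78.1% and 83.1%, whereas that of Pln had 32%.

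Per kilobase of exon, the store pump stood above the other members in every group of the genotype experiment. The median signal per kb over the 22 libraries was 105.5 for Atp2a2, 9.79 for Itpr1, 8.80 for Stim1, 5.29 for Atp2b1, 3.77 for Cacna1c, 3.54 for Pln, 1.92 for Cacnb2, 1.50 for Ryr2, 0.406 for Cacna1h and 0.175 for Slc8a1. The lowest library for Atp2a2 lay above the highest for Itpr1, and the ranges of all other neighbours in this order overlapped. In the CsA experiment the order was Atp2a2 (119.9), Itpr1 (12.2), Pln (8.50), Stim1 (8.23), Atp2b1 (5.74), Cacna1c (4.26), Ryr2 (1.94), Cacnb2 (1.61), Cacna1h (1.29) and Slc8a1 (0.651), again with overlapping ranges between all neighbours but the first pair. Slc8a1 was measured with 0 to 93 reads per library in the genotype experiment and Cacna1h with 13 to 63, so their values carry the largest counting error.

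Within their families, some members were the main form in the untreated aorta and others were not. Per kb, Itpr1 made up 85.8% ± 0.749 (SD, n = 2) of IP3 receptor signal in Cn-Ctl and 82.9% ± 2.45 (SD, n = 3) in WT, Ryr2 92.1% ± 8.85 and 95.2% ± 0.724 of ryanodine receptor signal, and Atp2a2 86.6% ± 2.27 and 86.6% ± 2.12 of store pump signal. Cacna1c took 65.2% ± 0.878 and 57.9% ± 0.886 of the signal of the L- and T-type pores measured, ahead of Cacna1d with 22.5% and 21.6%. Stim1 took 59.9% ± 3.69 and 57.9% ± 4.02, with Stim2 as the remainder. By contrast, Atp2b1 held 17.02% ± 1.76 and 15.9% ± 1.19 of plasma membrane pump signal, beside 82.2% and 82.9% for Atp2b4. Slc8a1 held 1.89% ± 0.109 and 9.05% ± 1.54 of exchanger signal, beside 87.4% and 81.1% for Slc8a2. Cacnb2 held 16.2% ± 1.88 and 10.7% ± 0.399 of beta subunit signal, beside 68.7% and 71.0% for Cacnb3.

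**Figure D1:**
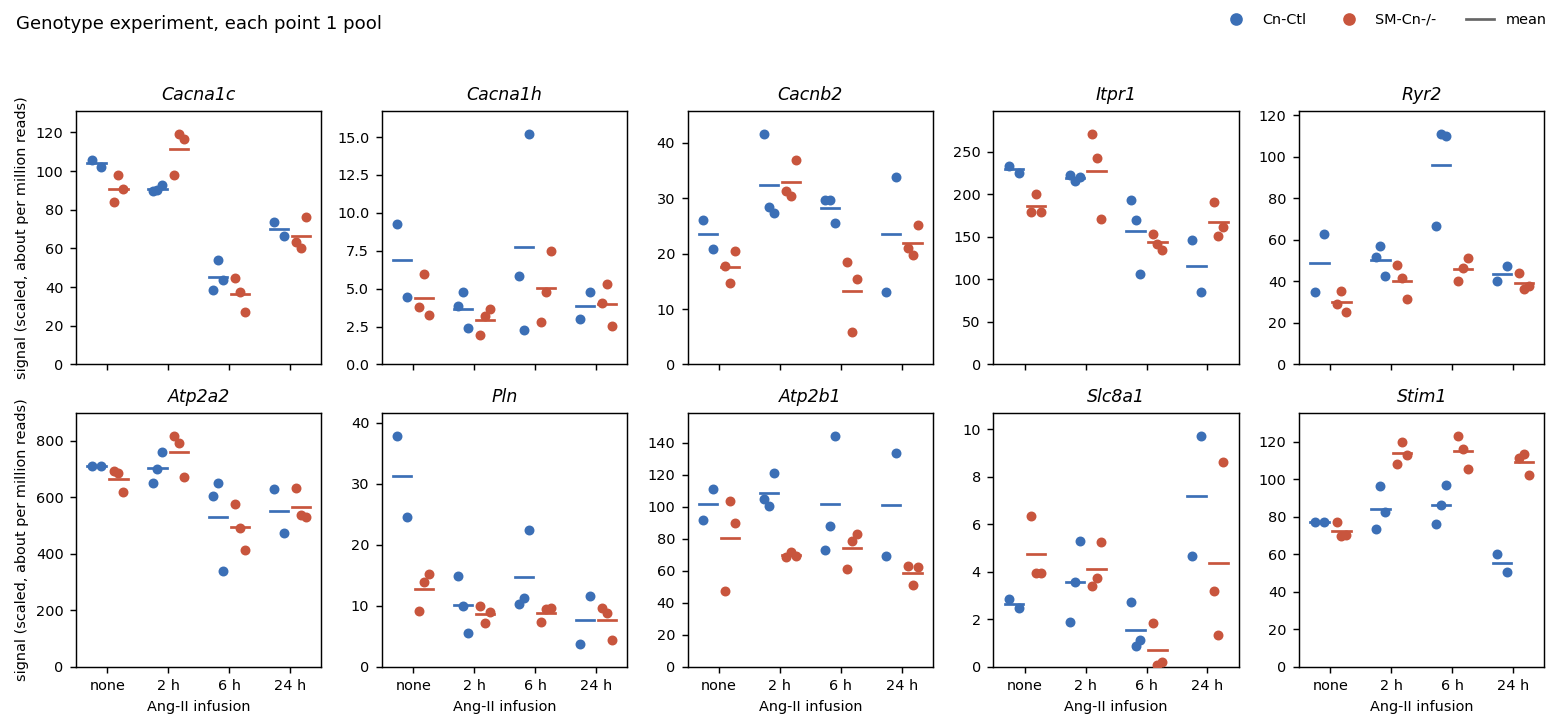
Signal (linear axis from 0, its own scale per gene) of the 10 genes in every pool of the genotype experiment, by genotype and hours of Ang-II; each point is 1 pool and the short lines are group means. Stim1 is higher in every SM-Cn-/- pool than in every Cn-Ctl pool at 2, 6 and 24 h. The gap is widest at 24 h, when the highest Cn-Ctl pool had a signal of 60.0 and the lowest SM-Cn-/- pool 102.5. Cacna1c dips at 6 h in both genotypes.

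**Figure D2:**
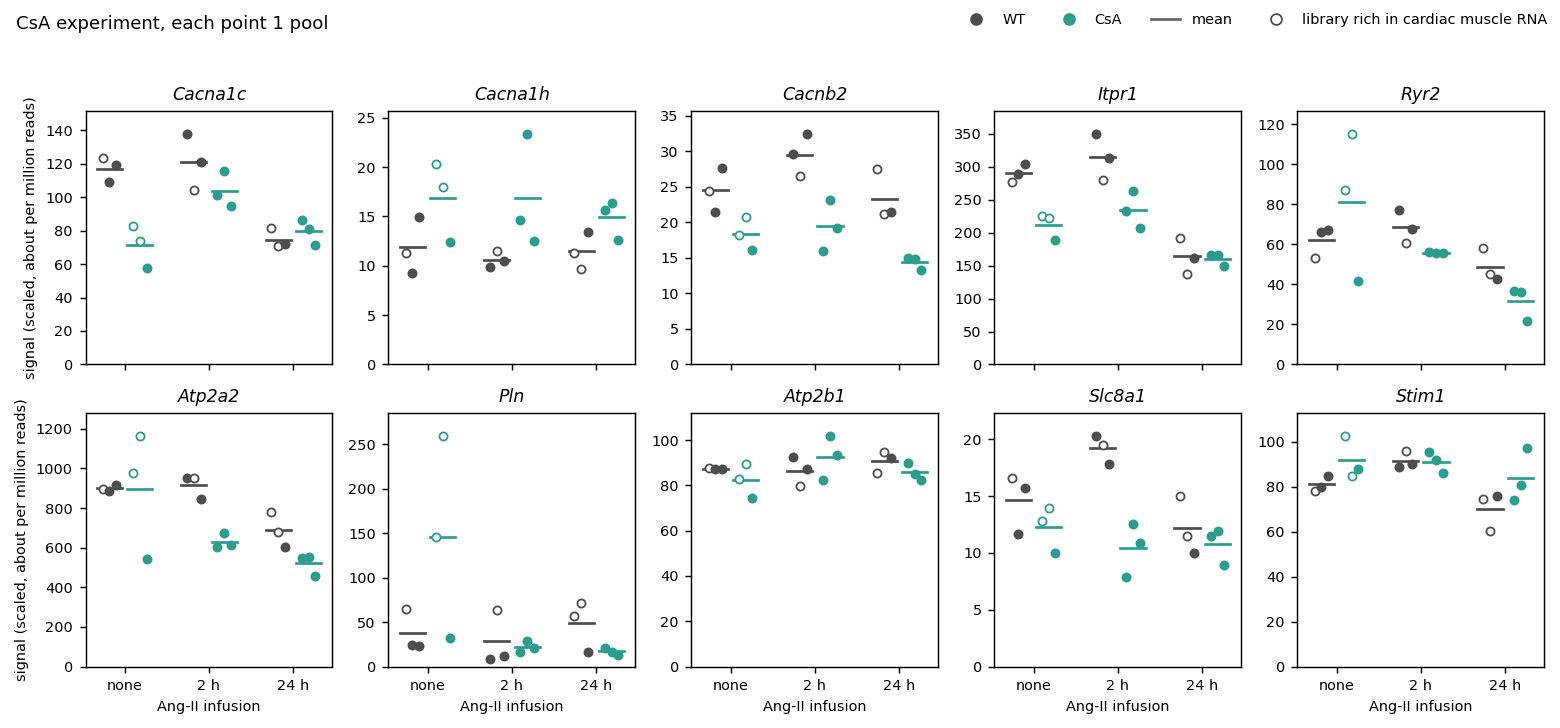
Signal (linear axis from 0, its own scale per gene) of the same genes in every pool of the CsA experiment, by pretreatment and hours of Ang-II; each point is 1 pool and the short lines are group means. Pln spans 9.01 to 259.3, with the 2 highest pools both untreated CsA, and Itpr1 lies lower at 24 h than in untreated pools under both pretreatments.

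At each time Ang-II changed between 0 and 3 of the 10 members. Over 22 comparisons of 10 members, 25 of 220 tests passed an adjusted p of 0.05 (limma, Benjamini-Hochberg over all genes tested): 16 of 100 against untreated aortas (4 higher, 12 lower), 7 of 70 between genotypes or pretreatments (1 higher, 6 lower) and 2 of 50 on the difference between responses (both higher). Over all genes, 10.35% of the tests against untreated aortas passed, 42.4% of them lower, 6.01% of those between genotypes or pretreatments, 53.8% of them lower, and 2.08% of those on responses, 55.7% of them lower. Cacna1c, Cacnb2, Itpr1, Ryr2, Atp2a2, Pln, Slc8a1 and Stim1 were called at least once, and Cacna1h and Atp2b1 never. Comparisons against one untreated group share its libraries.

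In Cn-Ctl, 1 of 10 members was called at 2 h, where 6.23% of all genes were, 2 at 6 h (all genes, 3.97%) and 2 at 24 h (all genes, 5.62%). In SM-Cn-/-, 1 was called at 2 h (all genes, 1.13%), 3 at 6 h (all genes, 2.34%) and 0 at 24 h (all genes, 0.79%). In WT, 0 were called at 2 h and 2 at 24 h, although 21.4% and 35% of all genes were called. In CsA-pretreated mice, 2 were called at 2 h and 3 at 24 h, against 20.1% and 8.98% of all genes. The median log2 fold change of the 10 members at 24 h was -0.43 in Cn-Ctl (all genes, -0.017), -0.20 in SM-Cn-/- (all genes, -0.0019), -0.24 in WT (all genes, 0.0035) and -0.26 with CsA (all genes, -0.024). At 2 h the medians were 0.040 in Cn-Ctl (all genes, 0.011), 0.23 in SM-Cn-/- (all genes, -0.011), 0.075 in WT (all genes, 0.024) and -0.014 with CsA (all genes, -0.024). The 6 h medians were -0.29 in Cn-Ctl (all genes, -0.0034) and -0.41 in SM-Cn-/- (all genes, -0.027). Fitted on the compared groups alone, 8 of the 25 calls passed. The share of all genes called in that fit is not given, so this count does not show a loss particular to the members.

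Between genotypes, limma called 0 members in untreated aortas and at 2 h, 1 at 6 h and 1 at 24 h, where 0.0139%, 3.7%, 1.98% and 4.94% of all genes were called. Between pretreatments, 3 were called in untreated aortas, 1 at 2 h and 1 at 24 h, against 25.2%, 1.33% and 5.58% of all genes. On the difference between responses, 0, 0 and 1 were called at 2, 6 and 24 h for the genotypes (all genes, 0.513%, 0.0624% and 0.513%), and 0 and 1 at 2 and 24 h for CsA (all genes, 0.146% and 9.42%). Where limma called 0 members, between 0 and 2 had an unadjusted p under 0.05. Over all genes, 757 to 2085 of 14424 had such a p in these comparisons of the genotype experiment. In the CsA experiment it was 4473 of 13738 for WT at 2 h and 1898 for the difference between responses at 2 h. In those comparisons edgeR also called 0, and DESeq2 called 0 except for 1 member each in SM-Cn-/- at 24 h and between genotypes at 2 h.

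**Figure D3:**
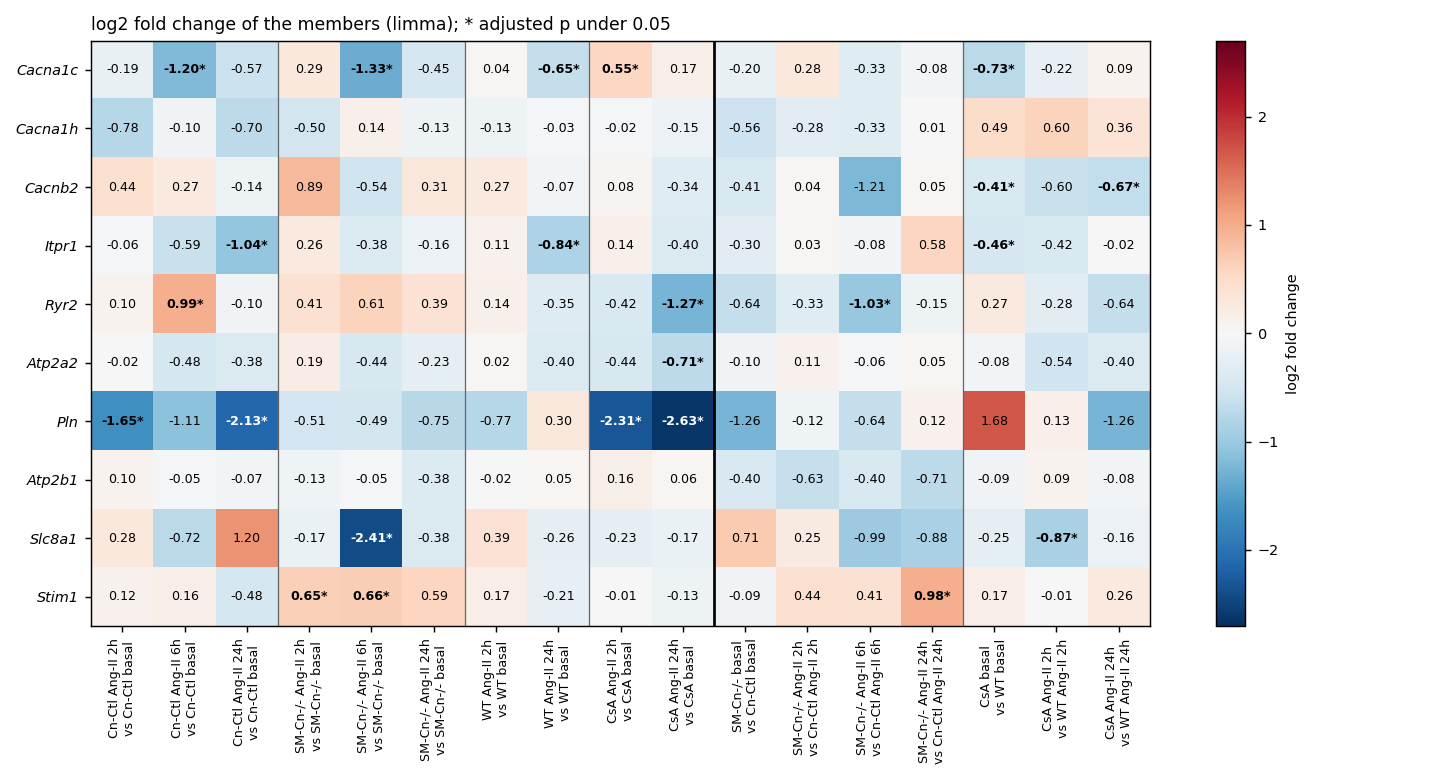
Log2 fold change of each of the 10 genes (rows) in the 10 comparisons of Ang-II with untreated aortas and the 7 between genotypes or pretreatments (columns); colour gives the log2 fold change and marked cells passed an adjusted p of 0.05 in limma. The lowest called value is -2.63 for Pln in CsA-pretreated mice at 24 h, and no cell is marked in the rows of Cacna1h and Atp2b1.

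Cacna1c, the pore of the L-type channel and the main voltage-gated entry route in vascular smooth muscle, fell at 6 h of Ang-II in both genotypes. Its signal was 106.0 and 102.1 in untreated Cn-Ctl pools and 38.3, 54.3 and 43.7 at 6 h. In SM-Cn-/- it was 83.8, 97.9 and 90.6 before and 44.5, 37.5 and 27.2 at 6 h. All pools at 6 h lay below all untreated pools of their genotype. The log2 fold change was -1.20 (SE 0.20, adjusted p = 0.000669) in Cn-Ctl and -1.33 (SE 0.17, adjusted p = 0.000163) in SM-Cn-/-, and both passed without any one library. The difference between these responses was -0.13, with a 95% interval from -0.67 to 0.41. At 2 h the signal was 89.8 to 92.7 in Cn-Ctl (log2 fold change -0.19, adjusted p = 0.674) and 97.7, 119.2 and 116.8 in SM-Cn-/- (0.29, adjusted p = 0.494), with every SM-Cn-/- pool above every Cn-Ctl pool (log2 difference 0.28, adjusted p = 0.508). At 24 h the log2 fold change was -0.57 in Cn-Ctl (adjusted p = 0.125) and -0.45 in SM-Cn-/- (adjusted p = 0.285).

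In the CsA experiment, which had no 6 h group, Cacna1c fell at 24 h in WT and did not pass at 24 h in CsA-pretreated mice. The WT signal was 123.1, 109.0 and 119.1 before Ang-II, 137.7, 104.4 and 120.9 at 2 h, and 81.4, 70.6 and 71.9 at 24 h, where all pools lay below the untreated ones (log2 fold change -0.65, SE 0.13, adjusted p = 0.00119). In CsA-pretreated mice it was 82.4, 73.9 and 57.4 before, 101.4, 115.4 and 94.4 at 2 h, and 86.3, 80.9 and 71.2 at 24 h. CsA thus went with a lower untreated level, by a log2 difference of -0.73 (SE 0.13, adjusted p = 0.00177), with no overlap between the groups. From that level Cacna1c rose at 2 h (log2 fold change 0.55, SE 0.13, adjusted p = 0.00821), and at 24 h its log2 fold change was 0.17 (adjusted p = 0.431). The response at 24 h differed between pretreatments by 0.81 (SE 0.18, 95% interval 0.42 to 1.21, adjusted p = 0.0150), although the signals at 24 h overlapped (log2 difference 0.089, adjusted p = 0.737).

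These Cacna1c calls passed without any one library, but the rise at 2 h with CsA had an adjusted p of 0.0812, and the difference between responses at 24 h 0.0961 (value 0.89), with the cardiac marker level as a covariate. Without the 6 cardiac-rich libraries the untreated difference was -0.98 and the difference between responses 1.12, with a single untreated CsA pool and a single WT pool at 24 h left. In the untreated CsA pools, 7 of 7 smooth muscle markers were also lower than in WT (median log2 difference -0.77, summed signal 16292 to 18338 against 25639 to 35127), and 5 of 5 endothelial markers were higher (median 1.20, summed signal 905 to 1044 against 347 to 587). Macrophage markers (5 of 5, median 1.31) and adipocyte markers (4 of 5, median 2.24) were higher there as well. The summed adipocyte signal was 919 to 1635 against 182 to 367. In WT at 24 h, 3 of 7 smooth muscle markers were called lower and 0 higher (median log2 fold change -0.27). Macrophage markers were higher there, 5 of 5 (median 1.42). On the difference between responses at 24 h, 1 of 7 smooth muscle markers was higher. There, 3 of 5 endothelial and 4 of 5 macrophage markers were lower. The part of these shifts in the Cacna1c results was not tested, and in pooled tissue fewer cells of a type and less RNA per cell cannot be told apart.

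Cacnb2, a beta subunit that brings L-type pores to the membrane, had a lower signal with CsA. Untreated, it was 24.5, 21.4 and 27.7 in WT and 18.2, 20.7 and 16.1 in CsA, without overlap (log2 difference -0.41, SE 0.15, adjusted p = 0.0493). At 24 h it was 27.4, 21.1 and 21.4 in WT and 14.9, 14.9 and 13.3 in CsA, again without overlap (log2 difference -0.67, SE 0.15, adjusted p = 0.0162). At 2 h the difference was -0.60 with an adjusted p of 0.0552. The untreated call was lost without WT replicate 1 (adjusted p = 0.0994), WT replicate 3 (0.186), CsA replicate 1 (0.103) or CsA replicate 3 (0.182), and the 24 h call without WT replicate 1 (0.0662) or 2 (0.0575). Without the cardiac-rich libraries the differences were -0.58 and -0.56, with a single untreated CsA pool and a single WT pool at 24 h left. The 24 h call of Cacnb2 did not pass with the cardiac marker level as a covariate. In the genotype experiment Cacnb2 had its largest difference at 6 h, with a signal of 29.7, 29.6 and 25.6 in Cn-Ctl and 18.5, 5.80 and 15.4 in SM-Cn-/-, which did not overlap but did not pass (log2 difference -1.21, adjusted p = 0.0710).

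Cacna1h, the pore of a T-type channel, was low in all groups. Its signal ranged from 1.96 to 15.2 in the genotype experiment and from 9.31 to 23.4 in the CsA experiment. Its log2 differences lay between -0.78 and 0.60 and the lowest adjusted p was 0.123, for CsA against WT in untreated aortas (log2 difference 0.49, SE 0.23).

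Itpr1, the main IP3 receptor here and the release channel downstream of Ang-II receptors, fell at 24 h of Ang-II in WT and Cn-Ctl. In WT its signal was 277.3, 289.8 and 304.3 before and 192.1, 137.9 and 161.7 at 24 h, without overlap (log2 fold change -0.84, SE 0.12, adjusted p = 8.48e-05), and this call passed without any one library. Leaving out the cardiac-rich libraries kept a single WT pool at 24 h. The marker shift of WT at 24 h given above for Cacna1c accompanies this fall of Itpr1, and its part was not tested. In Cn-Ctl the Itpr1 signal was 233.5 and 224.6 before and 145.8 and 85.0 at 24 h (log2 fold change -1.04, SE 0.26, adjusted p = 0.0187). The Cn-Ctl call was lost without untreated replicate 2 (adjusted p = 0.130) or 3 (0.106), and without the lower 24 h pool, replicate 3, the log2 fold change was -0.65 (0.332). In SM-Cn-/- the signal was 179.0, 200.4 and 179.6 before and 191.2, 150.5 and 161.1 at 24 h, which overlapped (log2 fold change at 24 h -0.16, adjusted p = 0.843). At 6 h all pools of both genotypes lay below their untreated pools, at 193.6, 169.9 and 105.8 in Cn-Ctl (log2 fold change -0.59, adjusted p = 0.186) and 153.4, 142.0 and 134.5 in SM-Cn-/- (-0.38, adjusted p = 0.382). The difference between the genotypes' responses at 24 h was 0.88 (95% interval 0.19 to 1.57, adjusted p = 0.293).

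CsA went with a lower untreated Itpr1 signal, 225.0, 222.3 and 189.5 against 277.3, 289.8 and 304.3 in WT, without overlap (log2 difference -0.46, SE 0.12, adjusted p = 0.0134). This call was lost without WT replicate 3 (adjusted p = 0.0544) or CsA replicate 3 (0.0671). The difference was -0.65 without the cardiac-rich libraries, with a single untreated CsA pool left. With the cardiac marker level as a covariate, 3 of 13 calls of the CsA experiment passed. Fewer members were called between untreated CsA and WT than in the main fit. The Itpr1 value and the share of all genes called in that fit are not given here. The marker shift of the untreated CsA pools given above for Cacna1c accompanies the Itpr1 difference. The other IP3 receptors went the opposite way: Itpr2 rose by a log2 difference of 1.08 (adjusted p = 0.00428) and Itpr3 by 1.01 (adjusted p = 0.00399), and the share of Itpr1 among IP3 receptors per kb was 62.9% in untreated CsA pools. At 24 h the CsA signal was 166.8, 165.5 and 149.6, below all untreated CsA pools (log2 fold change -0.40, adjusted p = 0.0522).

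Ryr2, the ryanodine receptor form of heart and the main form in these aortas, rose at 6 h in Cn-Ctl and differed there between genotypes. In Cn-Ctl its signal was 34.7 and 62.9 before and 66.6, 110.9 and 110.2 at 6 h, with all 6 h pools above the untreated ones (log2 fold change 0.99, SE 0.26, adjusted p = 0.0328). In SM-Cn-/- it was 29.3, 35.3 and 25.5 before and 40.1, 46.2 and 51.2 at 6 h, also without overlap (log2 fold change 0.61, adjusted p = 0.187). At 6 h every SM-Cn-/- pool lay below every Cn-Ctl pool (log2 difference -1.03, SE 0.23, adjusted p = 0.0214), and the difference between the responses was -0.38 with a 95% interval from -1.11 to 0.35. The rise in Cn-Ctl was 0.57 (adjusted p = 0.509) without untreated replicate 2 and was also lost without 6 h replicate 2 (0.109) or 3 (0.117). The difference between genotypes was lost without Cn-Ctl replicate 2 (0.126) or 3 (0.0806) or SM-Cn-/- replicate 1 (0.0507) or 2 (0.0752).

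In CsA-pretreated mice Ryr2 fell at 24 h, from 87.3, 115.1 and 41.5 to 36.9, 36.2 and 21.8 (log2 fold change -1.27, SE 0.27, adjusted p = 0.0111). The 2 high untreated pools were those rich in cardiac markers, and the third untreated pool lay near the 24 h pools. The call was lost without untreated replicate 1 (adjusted p = 0.0528) or 2 (0.0509). Without the cardiac-rich libraries the log2 fold change was -0.42, with a single untreated pool left. In WT, where untreated Ryr2 was 53.1, 66.2 and 67.0, the log2 fold change at 24 h was -0.35 (adjusted p = 0.348).

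Atp2a2 encodes SERCA2, which returns calcium to the store, and it was called only in CsA-pretreated mice at 24 h among the 22 comparisons. Its signal there was 978.1, 1164 and 543.2 before and 550.0, 553.9 and 459.4 at 24 h (log2 fold change -0.71, SE 0.20, adjusted p = 0.0343). The overlap was at untreated replicate 3, whose cardiac marker sum of 190.0 lay just below the cut of 200. That sum was 55.0 to 112.1 in the CsA pools at 2 h and 67.4 to 112.6 at 24 h. Without the cardiac-rich libraries, which left untreated replicate 3 alone, the log2 fold change was -0.07. The call was lost without untreated replicate 1 (adjusted p = 0.133) or 2 (0.133) or 24 h replicate 1 (0.0765), 2 (0.0739) or 3 (0.0715). Between untreated CsA and WT pools the log2 difference was -0.73 without the cardiac-rich libraries, again on that CsA pool alone, and -0.08 with them (adjusted p = 0.794). In WT the signal was 898.7, 888.6 and 915.3 before and 778.0, 680.8 and 602.0 at 24 h, without overlap, and the log2 fold change was -0.40 (adjusted p = 0.131). In the genotype experiment it ranged from 339.0 to 817.4, with no call.

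Pln encodes phospholamban, the inhibitor of SERCA2, and it fell in Cn-Ctl at 2 and 24 h. Its signal was 37.8 and 24.55 in untreated Cn-Ctl, 14.9, 10.01 and 5.44 at 2 h, 10.3, 11.3 and 22.4 at 6 h, and 3.68 and 11.5 at 24 h. All treated pools lay below both untreated pools, by a log2 fold change of -1.65 at 2 h (SE 0.47, adjusted p = 0.0379) and -2.13 at 24 h (SE 0.52, adjusted p = 0.0165), and at 6 h by -1.11 (adjusted p = 0.222). In SM-Cn-/- the untreated pools, at 9.03, 13.9 and 15.2, were already in the range of treated Cn-Ctl pools, and no time point was called. Untreated, the genotypes did not overlap, but the log2 difference of -1.26 had an adjusted p of 0.768, and the difference between the responses at 24 h was 1.38 (95% interval -0.0027 to 2.76, adjusted p = 0.453).

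The summed cardiac marker signal was 26.9 and 44.0 in the untreated Cn-Ctl pools, 22.8 to 65.4 at 2 h and 29.3 to 90.1 at 24 h, and its part in the Pln values was not tested. The 2 h call was lost without untreated replicate 2 (adjusted p = 0.317) or 3 (0.105) or 2 h replicate 2 (0.0785) or 3 (0.149), and with quantile normalisation (0.0655). The 24 h call was lost without untreated replicate 2 (0.176) or 3 (0.0534) or 24 h replicate 2 (0.154). The untreated group rests on 2 pools, with the Pln reads per library between 26 and 259 in this experiment.

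In the CsA experiment the highest Pln values lay in cardiac-rich pools. Its signal was 65.1, 24.1 and 22.85 in untreated WT, 9.01, 64.1 and 11.9 at 2 h and 57.1, 71.7 and 16.5 at 24 h, and in each of these groups the cardiac-rich pools were the highest. In CsA-pretreated mice it was 145.8, 259.3 and 31.9 before, where the first pair was cardiac-rich, 15.8, 28.7 and 20.7 at 2 h and 21.0, 16.7 and 13.47 at 24 h. It was called lower at 2 h (log2 fold change -2.31, SE 0.76, adjusted p = 0.0423) and at 24 h (-2.63, SE 0.76, adjusted p = 0.0421). Without the cardiac-rich libraries the values were -0.59 and -0.91, with a single untreated CsA pool left. In WT at 2 h, the log2 fold change of Pln was -0.77 with all libraries (adjusted p = 0.538) and -1.14 without the cardiac-rich ones (adjusted p = 0.0247). Each of the 2 CsA calls was also lost without any one of its libraries other than untreated replicate 3, with adjusted p-values from 0.0774 to 0.162 at 2 h and from 0.0722 to 0.150 at 24 h.

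**Figure D4:**
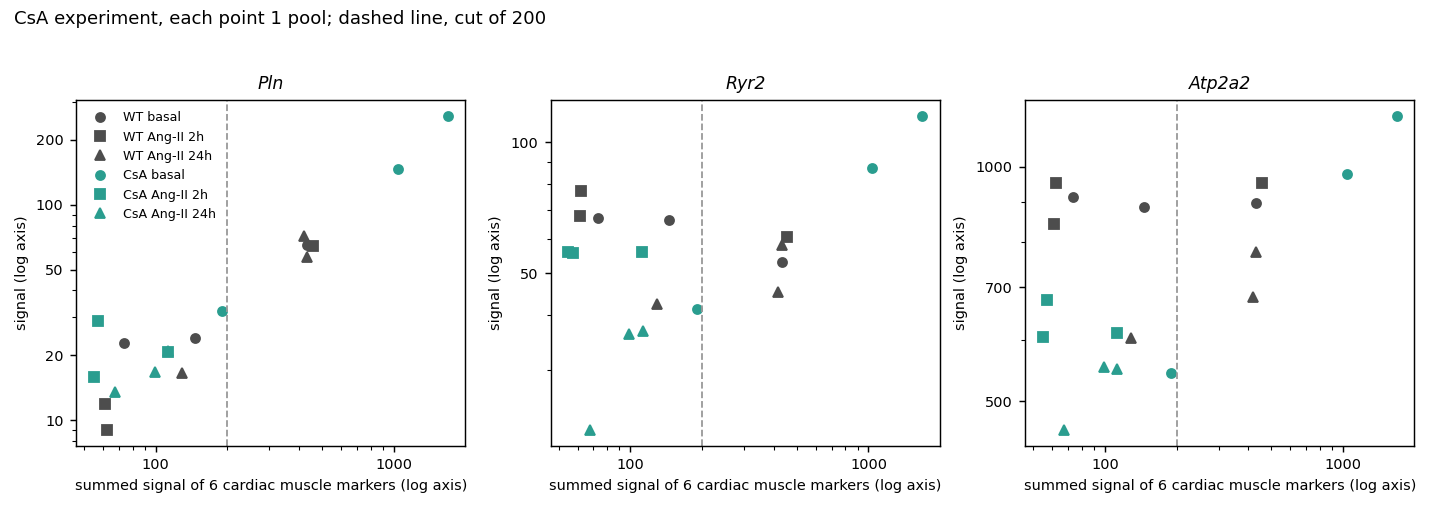
Signal of Pln, Ryr2 and Atp2a2 (vertical, log axis) against the summed signal of 6 cardiac muscle markers (horizontal, log axis) in the 18 pools of the CsA experiment; the dashed line marks 200. The untreated CsA pools at 1037 and 1681 are the highest for all 3 genes, and the third untreated CsA pool, at 190.0, lies among the others.

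Atp2b1 encodes PMCA1, a pump that expels calcium across the plasma membrane, and it passed in none of the 22 comparisons. Its signal was 74.6 to 101.8 over the 18 libraries of the CsA experiment, the narrowest of the 10 members there relative to its level, and its log2 fold changes with Ang-II lay between -0.017 and 0.16. In the genotype experiment it ranged from 47.4 to 144.0. At 24 h it was 69.2 and 133.2 in Cn-Ctl and 62.6, 50.9 and 62.4 in SM-Cn-/-, without overlap (log2 difference -0.71, SE 0.30, adjusted p = 0.207).

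Slc8a1, the sodium-calcium exchanger NCX1, was measured near its detection limit in the genotype experiment. In SM-Cn-/- its signal was 6.35, 3.96 and 3.93 before Ang-II and 1.81, 0.0717 and 0.173 at 6 h, where the latter 2 libraries held 0 reads. The log2 fold change of -2.41 (SE 0.58) had an adjusted p of 0.0291, which was 0.136 with edgeR on the recovered reads. The call was also lost without untreated replicate 1 (0.110) or 3 (0.0860) or 6 h replicate 2 (0.148) or 3 (0.106). In Cn-Ctl at 6 h the signal was 2.7, 0.859 and 1.097, against 2.84 and 2.46 before (log2 fold change -0.72, adjusted p = 0.646). In the CsA experiment, at greater depth, Slc8a1 was lower with CsA at 2 h, at 7.84, 12.5 and 10.9 against 20.3, 19.6 and 17.8 in WT, without overlap (log2 difference -0.87, SE 0.19, adjusted p = 0.0395). This call was lost without WT replicate 1 (0.172) or 3 (0.116) or CsA replicate 1 (0.182), and without the cardiac-rich libraries the difference was -0.86 (0.0938). It also did not pass with the cardiac marker level as a covariate.

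Stim1, which senses the calcium of the store and opens store-operated channels, rose with Ang-II in SM-Cn-/- and ended higher there than in Cn-Ctl. In SM-Cn-/- its signal was 77.3, 69.5 and 70.2 before, 108.3, 120.2 and 112.9 at 2 h, 123.1, 116.3 and 105.7 at 6 h, and 111.1, 113.3 and 102.5 at 24 h, and every treated pool exceeded every untreated one. The log2 fold change was 0.65 at 2 h (SE 0.14, adjusted p = 0.0227), 0.66 at 6 h (SE 0.14, adjusted p = 0.0158) and 0.59 at 24 h (SE 0.14, adjusted p = 0.0554). In Cn-Ctl the signal was 77.1 and 77.1 before, 73.5, 96.5 and 82.5 at 2 h, 76.1, 86.1 and 97.0 at 6 h, and 60.0 and 50.4 at 24 h, with log2 fold changes of 0.12, 0.16 and -0.48 (adjusted p = 0.777, 0.698 and 0.111).

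At 24 h Stim1 differed between the genotypes by a log2 value of 0.98 (SE 0.16, adjusted p = 0.000835), a call that passed without any one library. The untreated difference was -0.094 (95% interval -0.43 to 0.24), and the difference between the responses at 24 h was 1.07 (SE 0.23, 95% interval 0.60 to 1.54, adjusted p = 0.0302). At 2 and 6 h every SM-Cn-/- pool also lay above every Cn-Ctl pool, but Stim1 was not called between the genotypes at these times. The differences between the responses at 2 and 6 h were 0.53 and 0.51, with adjusted p-values of 0.482 and 0.726. Endothelial markers were also higher in SM-Cn-/- at 24 h: their summed signal was 432 to 448 in Cn-Ctl and 1039 to 1118 in SM-Cn-/-, and 2 of 5 were called higher (median log2 difference 0.66). Their part in the Stim1 difference was not tested. In untreated pools that sum was 299 to 411 in Cn-Ctl and 542 to 690 in SM-Cn-/- (median log2 difference 0.75, 0 of 5 called). At 2 h it was 282 to 520 and 637 to 825.

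The rises within SM-Cn-/- were less stable than the 24 h difference between genotypes. The 2 h call was lost without untreated replicate 2 (adjusted p = 0.0572) or 3 (0.135) or any 2 h pool (0.0587 to 0.130), with log2 fold changes between 0.61 and 0.69. The 6 h call was lost without untreated replicate 3 (0.0697) or 6 h replicate 2 (0.0675). The 24 h difference between responses was lost without either untreated Cn-Ctl pool (0.172 and 0.128), Cn-Ctl 24 h replicate 3 (0.225), any untreated SM-Cn-/- pool (0.0537 to 0.0577) or SM-Cn-/- 24 h replicate 1 (0.0851) or 2 (0.0760), with values between 0.95 and 1.12. In the CsA experiment Stim1 ranged from 60.3 to 102.5 and was not called. Its difference between CsA and WT at 24 h was 0.26 (95% interval 0.029 to 0.48, adjusted p = 0.160), and the difference between their 24 h responses was 0.083 (95% interval -0.24 to 0.40).

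**Figure D5:**
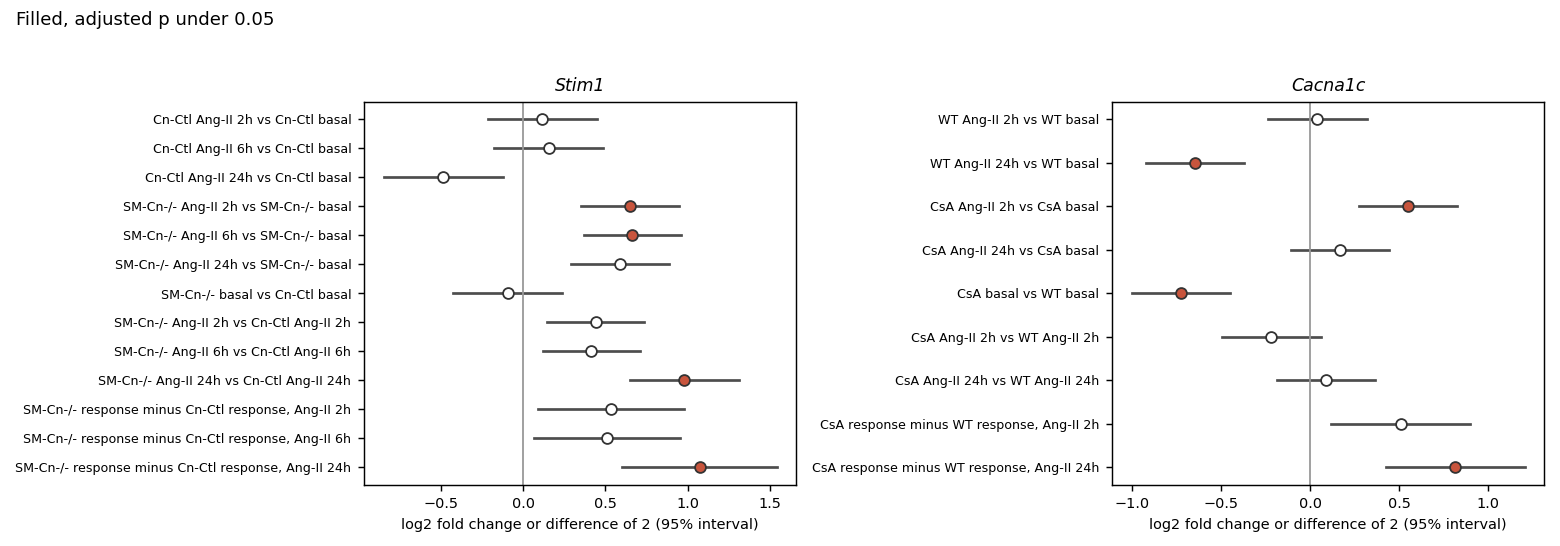
Log2 fold changes with 95% intervals (limma) of Stim1 by genotype and of Cacna1c by pretreatment at each time of Ang-II, with the differences between the arms at each time and between their responses; filled points passed an adjusted p of 0.05. For Stim1 at 24 h the genotypes lie at -0.48 and 0.59 and differ by 1.07, and for Cacna1c at 24 h WT and CsA lie at -0.65 and 0.17 and differ by 0.81.

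Of 75 further genes of calcium handling listed beside the 10 members, 67 and 65 were tested in the 2 experiments. In Cn-Ctl, 5 were called at 2 h (4 higher, 1 lower), 3 at 6 h (all higher) and 8 at 24 h (3 higher, 5 lower), which is 7.46%, 4.48% and 11.9% beside 6.23%, 3.97% and 5.62% of all genes. In SM-Cn-/-, 1 (lower), 4 (2 higher, 2 lower) and 0 were called, or 1.49%, 5.97% and 0% beside 1.13%, 2.34% and 0.79%. In WT, 14 were called at 2 h (9 higher, 5 lower) and 28 at 24 h (9 higher, 19 lower), or 21.5% and 43.1% beside 21.4% and 35%. In CsA-pretreated mice 15 (13 higher, 2 lower) and 2 (1 higher, 1 lower) were called, or 23.1% and 3.08% beside 20.1% and 8.98%. Between untreated CsA and WT aortas 24 were called (6 higher, 18 lower), or 36.9%, beside 25.2% of all genes. Between genotypes, 0%, 1.49%, 4.48% and 4.48% were called untreated and at 2, 6 and 24 h, beside 0.0139%, 3.7%, 1.98% and 4.94% of all genes. On the difference between the genotypes' responses 0 of 67 were called at 2, 6 and 24 h, beside 0.513%, 0.0624% and 0.513%. For the responses with CsA and in WT it was 0% and 20% at 2 and 24 h, beside 0.146% and 9.42%.

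Among the channels, Piezo1, a mechanically gated cation channel, rose in Cn-Ctl at 2, 6 and 24 h, with log2 fold changes of 1.27, 1.46 and 1.86 (adjusted p = 0.0166, 0.00941 and 0.00258). Cacna1d, a second L-type pore, fell at 24 h in Cn-Ctl (log2 fold change -1.41, adjusted p = 0.0464) and in WT (-1.47, adjusted p = 1.62e-05). It was higher in SM-Cn-/- than in Cn-Ctl at 24 h, with a mean signal of 26.7 against 8.39 (log2 difference 1.59, adjusted p = 0.0143). The difference between the genotypes' responses was not called for Cacna1d or Piezo1 at any time. Between CsA and WT the 24 h response of Cacna1d differed, by 1.43 (adjusted p = 0.00497). Untreated Cacna1d was already lower with CsA, at 1.09 ± 0.13 per kb (SD, n = 3) against 2.06 ± 0.10 (SD, n = 3) in WT. Trpv4, a further cation channel, rose at 6 h in both genotypes (log2 fold change 2.37 and 1.89, adjusted p = 0.00997 and 0.0311).

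Among the genes of the store, Jph2, which holds the plasma membrane close to the store membrane, rose at 6 h in Cn-Ctl (log2 fold change 0.94, adjusted p = 0.0148). It was lower in SM-Cn-/- than in Cn-Ctl at 2 h (log2 difference -0.77, adjusted p = 0.0268) and 6 h (-1.14, adjusted p = 0.00213), and lower with CsA than in WT at 24 h (-0.70, adjusted p = 0.0323). The difference between the genotypes' responses was not called for Jph2. At 24 h the summed cardiac marker signal was 129 to 432 in WT and 67.4 to 112.6 with CsA. Its part in the Jph2 difference between CsA and WT was not tested. Jph1, of the same family, rose at 2 h in Cn-Ctl (1.35, adjusted p = 0.0397), WT (1.00, adjusted p = 0.00525) and CsA (1.01, adjusted p = 0.00703). Atp2a3, a store pump of endothelial and other non-muscle cells, had a mean signal of 190.4 in SM-Cn-/- and 86.3 in Cn-Ctl at 24 h (log2 difference 1.14, adjusted p = 0.00412), in the comparison where endothelial markers were also higher. The calcium buffer Casq1 was lower in untreated CsA than in WT aortas (-1.66, adjusted p = 0.00106) and rose at 2 h in CsA (1.18, adjusted p = 0.00694).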

How the data were processed

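RNA was measured in 40 aortic libraries. Per the labels and the methods, the authors sequenced oligo-dT libraries and estimated reads per gene with RSEM 1.16 and Bowtie 0.12.7 (submitters' processing notes), and they discarded 1 untreated Cn-Ctl library. The deposited signal values are the assigned reads plus 0.5, over a scaled library size, both set by the authors, as the values themselves show: 100% convert to whole reads (tolerance 0.01). Scaling is thus part of every value, and 1 read was worth a signal of 0.092 to 0.347 in the genotype experiment and 0.0256 to 0.0548 in the CsA experiment. Replicates differed by more than read sampling (chi-square per degree of freedom at least 6.16).

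Protein-coding genes (GENCODE M21, GRCm38) with a signal of at least 1 in 2 or more libraries were kept. Libraries were grouped by the sample labels. Log2(signal + 0.5) entered a linear model of limma 3.58.1 (R 4.3.3) for each experiment, with group means as coefficients and a variance trend, and 22 comparisons were adjusted by Benjamini-Hochberg over all genes tested. Fold changes on this scale understate changes of low genes. Steps were tested on simulated data. edgeR 4.0.16 on the recovered reads called between 2 and 4834 genes per comparison, where limma called 2 to 4807. Further alternatives were DESeq2 1.42.0, a pseudocount of 1, no filter, quantile normalization, a fit of only the compared groups, a replicate block, leaving out each library and, chosen after seeing the data, leaving out libraries with a cardiac marker sum above 200 or fitting that sum. Per-kb values divide by the GENCODE exon length. All 10 members are named in every comparison, with Ppp3r1 and Rcan1 as checks and, of 75 other calcium genes, examples from the up to 4 called genes with the largest change per comparison. The members, gene lists and markers were chosen with earlier results of these data known.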

Additional observations from a re-analysis of the deposited data

Results flagged for a closer look

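The difference between the 24 h responses of SM-Cn-/- and Cn-Ctl for Stim1, 1.07 on the log2 scale, passed the test of the difference itself (limma interaction, adjusted p = 0.0302), with every SM-Cn-/- pool at 24 h above its untreated pools and both Cn-Ctl pools below theirs. The Stim1 call was lost without any single untreated pool of either genotype, without some of the 24 h pools, and on the compared groups alone. Untreated Cn-Ctl and Cn-Ctl at 24 h held 2 pools each. The difference between the 24 h responses of CsA-pretreated and WT mice for Cacna1c, 0.81 on the log2 scale, also passed the test of the difference itself (adjusted p = 0.0150), while the signals at 24 h overlapped and the untreated signals did not. This difference did not pass with the cardiac marker level as a covariate (adjusted p = 0.0961). Leaving out the cardiac-rich libraries kept a single pool in untreated CsA and in WT at 24 h.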

How the results depend on the processing

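All 25 calls passed with a pseudocount of 1, without the filter and with DESeq2, which added 9, 24 passed with edgeR, and 21 with quantile normalization, which added 5. Fitted on the compared groups alone, 8 of 25 passed and 2 were added. With the cardiac marker level as a covariate 3 of 13 calls of the CsA experiment passed. Calls without the cardiac-rich libraries are not counted here, because untreated CsA and WT at 24 h then hold a single pool each. Fewer libraries or residual degrees of freedom are part of these alternatives, and the cause was otherwise not tested.

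The member counts here and below stand without the share of all genes called in the same fit. They thus do not show whether a change in calls is particular to the members. Members called moved to 0 on the compared groups alone for Cn-Ctl at 2, 6 and 24 h, SM-Cn-/- at 2 h, CsA at 2 and 24 h, the genotypes at 6 h, CsA against WT at 2 and 24 h and the genotype difference in response at 24 h, and to 1 for SM-Cn-/- at 6 h and the genotypes at 2 h. Quantile normalization gave 0 for Cn-Ctl and SM-Cn-/- at 2 h and CsA against WT at 2 h, and 1 for SM-Cn-/- at 24 h and the genotypes at 2 h. DESeq2 gave 1 for SM-Cn-/- at 24 h and the genotypes at 2 h, 2 for the genotypes at 6 h and the CsA difference in response at 24 h, and 3 for CsA against WT at 2 h. Without the cardiac-rich libraries the counts were 1 for WT at 2 h and 0 for CsA against WT at 2 h, where both groups kept more than a single pool. With the covariate they were 0 for CsA at 2 and 24 h, CsA against WT at 2 and 24 h and the difference in response at 24 h, and 1 for untreated CsA against WT.

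Log2 values changed sign for Atp2a2 in CsA at 2 h (0.21 without the cardiac-rich libraries, 0.029 with the covariate), Pln in CsA at 2 h (0.45, covariate), Atp2a2 in untreated CsA against WT (0.16 with quantile normalization, 0.24 without CsA replicate 3, in a leave-one-out range from -0.31 to 0.24), Pln in the same comparison (-0.048, covariate) and Pln in the difference in response at 24 h (0.18, covariate).

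Leaving out 1 library at a time gave 0 to 1 called members for Cn-Ctl at 2 h, 1 to 2 at 6 h and 0 to 1 at 24 h, 0 to 1, 1 to 3 and 0 for SM-Cn-/-, 0 and 2 for WT at 2 and 24 h, 1 to 4 and 0 to 4 for CsA, 0, 0, 0 to 1 and 1 to 3 between the genotypes, 1 to 3, 0 to 2 and 0 to 1 between CsA and WT, 0, 0 and 0 to 1 for the genotype differences in response and 0 and 1 to 4 for those of CsA.

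With the replicate block, 22 of 25 calls passed and 1 was added, with 0 members for Cn-Ctl at 2 h and CsA against WT at 2 h and 2 for the genotypes at 6 h. The replicate numbers are not shown to pair libraries: the deviations of 71 same-number pairs in the genotype experiment correlated between -0.374 and 0.339, and 13 of 22 libraries were closest to their own number, against -0.389 to 0.377 for 45 pairs and 5 of 18 libraries in the CsA experiment. Depth limits Slc8a1 and Cacna1h in the genotype experiment.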
